A study of Mus musculus with 2 samples.

Results

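The 40 genes described here are those of glycolysis and of the response to low oxygen. They were chosen by a list of symbols: 19 glycolytic enzymes, 4 regulators of glycolytic flux, 3 transporters of glucose or lactate, 6 genes of the hypoxia-inducible factor (HIF) system and 8 other genes that HIF is known to induce. Of these 40, 37 were measured by a probe set annotated to exactly 1 gene, among 17874 such genes in all, each of the 37 by 1 probe set. Gpi1 and Eno1 had no such probe set, and the only one naming Gapdh is shared with a pseudogene, so these 3 enzymes were not analysed here. Of the 37, 34 reached a floor of 5.70 on at least 1 array, the median of all gene values, and Eno2, Epas1 and Car9 stayed below it on both.

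Expression was measured on 2 Affymetrix mouse arrays, 1 of cells kept for 3 h in Panserin medium and 1 of cells lysed at 0 h. Both samples hold erythroid colony-forming cells (CFU-E), progenitors that normally depend on erythropoietin, and both lack its receptor (EpoR-/-, BALB/c, gestational day 13.5) according to the protocol, whereas the genotype label reads Epo KO. CFU-E were enriched from pools of 40 to 50 fetal livers by antibody depletion of lymphoid, myeloid, platelet-lineage and late erythroid cells, and were starved of growth factors for 1 h before either time point. The 3 h label mentions added growth factors and the protocol says there were none, the strain is labelled for the 0 h sample alone, and the sources used here do not say whether the samples share a pool. With 1 array for each time nothing could be tested and no value carries an error, so what is given is the log2 value at 3 h, that at 0 h and their difference (3 h minus 0 h).

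Glycolysis splits glucose into pyruvate and yields ATP without oxygen. Mature red cells have no mitochondria and live on it, and inherited defects of several of its enzymes cause haemolytic anaemia. Under low oxygen, HIF, a dimer of an oxygen-sensitive alpha subunit and ARNT, binds a short DNA core, the hypoxia response element, and raises transcription of most glycolytic genes and of genes for blood vessel growth, whereas with oxygen the EGLN prolyl hydroxylases mark the alpha subunit for destruction through VHL. HIF alpha is therefore mainly controlled as a protein, which an array of RNA does not measure.

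The sequences just before the transcription start of 7 members are shown because they hold, or lack, the core of the hypoxia response element and belong to genes on both sides of the comparison. They are RefSeq sequences of the assembly GRCm38.p6, the 150 bases before 1 annotated start of each gene, 5′ to 3′ on the gene's strand. Capitals mark every ACGTG or GCGTG on either strand, so that a match on the opposite strand reads CACGT or CACGC.
Slc16a3: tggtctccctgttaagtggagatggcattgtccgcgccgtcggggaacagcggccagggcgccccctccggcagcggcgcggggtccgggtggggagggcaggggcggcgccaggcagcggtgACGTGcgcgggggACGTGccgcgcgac
Ldha: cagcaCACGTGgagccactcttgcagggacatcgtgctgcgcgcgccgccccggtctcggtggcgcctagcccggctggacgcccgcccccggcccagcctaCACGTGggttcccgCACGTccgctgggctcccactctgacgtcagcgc
Pgk1: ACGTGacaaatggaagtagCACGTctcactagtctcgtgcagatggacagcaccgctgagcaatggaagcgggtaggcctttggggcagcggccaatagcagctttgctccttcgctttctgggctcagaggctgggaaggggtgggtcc
Tpi1: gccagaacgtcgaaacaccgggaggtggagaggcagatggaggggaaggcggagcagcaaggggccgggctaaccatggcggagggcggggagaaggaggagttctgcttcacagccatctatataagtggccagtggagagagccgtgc
Hif1a: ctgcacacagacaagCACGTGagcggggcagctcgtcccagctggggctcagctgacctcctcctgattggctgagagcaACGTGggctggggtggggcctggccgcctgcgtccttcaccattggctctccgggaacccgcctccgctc
Pfkfb4: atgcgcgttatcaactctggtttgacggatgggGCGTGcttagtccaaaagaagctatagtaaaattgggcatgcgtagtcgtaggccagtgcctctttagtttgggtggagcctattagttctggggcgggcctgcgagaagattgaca
Eno3: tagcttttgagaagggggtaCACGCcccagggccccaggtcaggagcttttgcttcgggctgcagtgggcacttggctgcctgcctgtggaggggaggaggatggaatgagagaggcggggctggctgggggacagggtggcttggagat
Slc16a3 lies at chr11:120948917-120949066 on the plus strand, Ldha at chr7:46845654-46845803 on the plus strand, Pgk1 at chrX:106186950-106187099 on the plus strand and Tpi1 at chr6:124814159-124814308 on the minus strand. Hif1a lies at chr12:73907717-73907866 on the plus strand, Pfkfb4 at chr9:108991752-108991901 on the plus strand and Eno3 at chr11:70657026-70657175 on the plus strand. In Slc16a3, which encodes a lactate exporter, 2 ACGTG cores begin 27 and 14 bases before the start. Ldha, which encodes lactate dehydrogenase A, has ACGTG inside 2 copies of CACGTG, the core that MYC and USF proteins also bind, and once more 34 bases before the start. Pgk1 has ACGTG once on each strand, and Hif1a has it inside 1 CACGTG and again 70 bases before the start. Tpi1, the gene of triosephosphate isomerase, has neither core in the stretch shown, and Pfkfb4 and Eno3 have 1 GCGTG each.

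Glycolytic enzyme genes were lower at 3 h as a group. Of the 15 at or above the floor, 14 were lower, against 48.5% of all 9284 genes at or above the floor. After quantile normalization, where the difference of Pkm was 0, 13 were lower, against 51.2% of 9285 genes. In the values as deposited the median difference of the enzyme genes was -0.34, against 0.01 for all 9284 genes. Individual differences were small: among all 34 members at or above the floor 3 were lower by at least 1.5-fold, namely Slc16a3, Vegfa and Pfkl, where 4.80% of all genes were, and 2 were higher by that much, Eno3 and Pfkfb4, where 6.94% of all genes were. The quartiles of all differences were -0.20 and 0.23, and the 5th and 95th percentiles were -0.58 and 0.68.

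**Figure D1:**
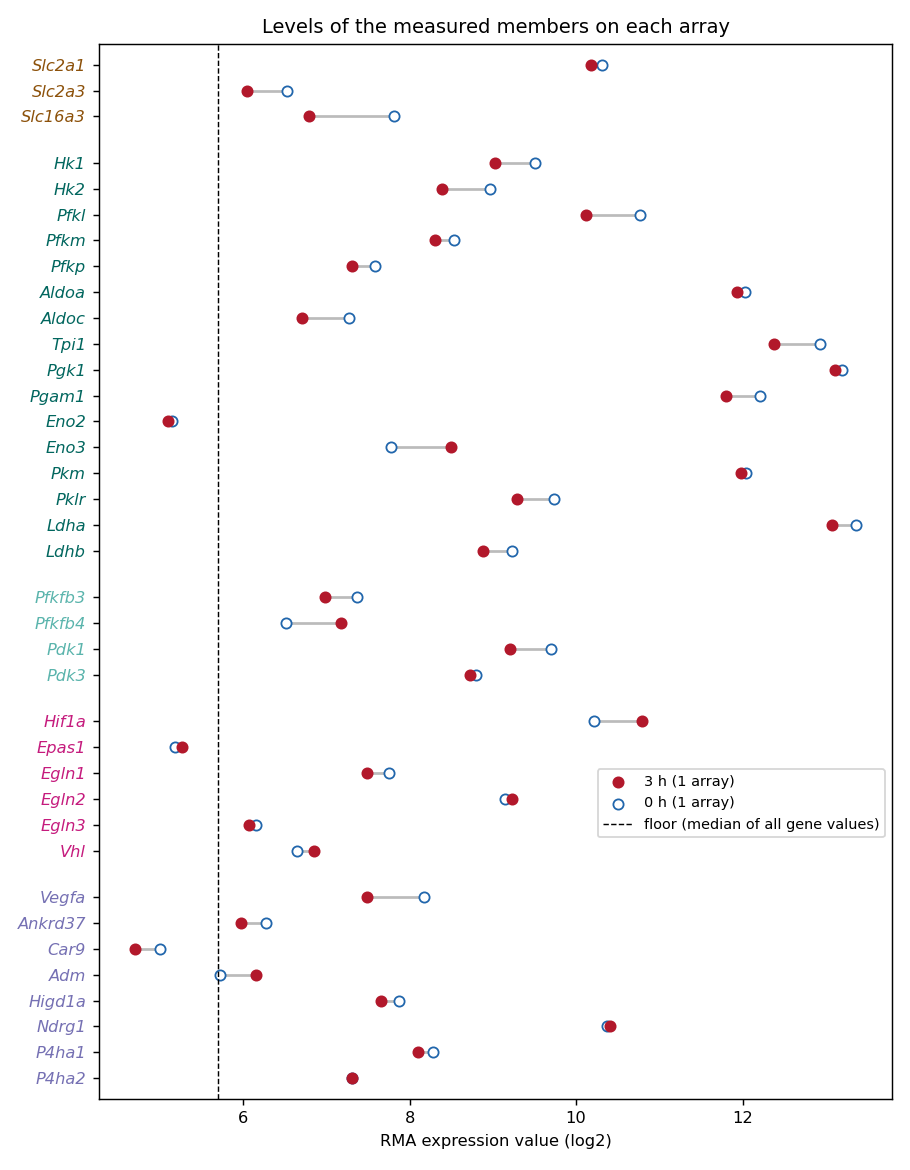
RMA expression value (log2, horizontal axis) of the 37 measured members, grouped by role in the colour of the symbol, with filled points for the 3 h array, open points for the 0 h array and a dashed line at the floor of 5.70. In the enzymes and transporters the filled point lies left of the open one, except for Eno3. The filled point lies to the right in Pfkfb4, Hif1a, Vhl and Adm, and by less in Epas1, Egln2 and Ndrg1, while the points of P4ha2 coincide.

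All 3 transporter genes were lower at 3 h. Slc2a1, which encodes GLUT1, the basal glucose transporter of many cells, had 10.18 at 3 h and 10.32 at 0 h, a difference of -0.14. Slc2a3, which encodes the high-affinity glucose transporter GLUT3, had 6.05 at 3 h and 6.52 at 0 h, both not far above the floor. Slc16a3, which encodes the lactate exporter MCT4, had 6.79 at 3 h and 7.82 at 0 h, 2.03-fold lower. It was the member with the largest difference and the only one past 2-fold, a size that 0.872% of all genes reached in that direction.

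The first steps of glycolysis trap glucose in the cell and commit it to the pathway. Hk1, the hexokinase of red cells, had 9.02 at 3 h and 9.51 at 0 h (-0.49), and Hk2, the hexokinase that HIF and MYC induce, had 8.39 at 3 h and 8.96 at 0 h (-0.57). Both hexokinase genes were therefore lower by a similar amount. All 3 phosphofructokinase genes were lower too, but unequally: Pfkl, the liver type and also a subunit of the red cell enzyme, had 10.13 at 3 h and 10.77 at 0 h, 1.56-fold lower. Pfkm, the muscle type, had 8.31 at 3 h and 8.53 at 0 h (-0.23). Pfkp, the platelet type, had 7.31 at 3 h and 7.59 at 0 h (-0.28).

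In the middle of the pathway, where the sugar is split and rearranged, all 3 genes measured were lower. Aldoa, the aldolase of muscle and red cells, had 11.93 at 3 h and 12.03 at 0 h (-0.10), whereas Aldoc, the brain type, had 6.71 at 3 h and 7.28 at 0 h (-0.57). Tpi1 had 12.38 at 3 h and 12.93 at 0 h, 1.46-fold lower. These aldolase genes thus differed unequally, and Tpi1, among the brightest members, was lower by more than Aldoa.

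The steps from phosphoglycerate kinase to enolase, included small differences and the single enzyme gene that was higher. Pgk1, the gene of phosphoglycerate kinase, had 13.11 at 3 h and 13.20 at 0 h (-0.09), and Pgam1, that of phosphoglycerate mutase, had 11.81 at 3 h and 12.21 at 0 h (-0.40). Eno3, the muscle enolase gene, had 8.50 at 3 h and 7.78 at 0 h, 1.65-fold higher, and 4.38% of all genes lay as high. Eno2, the neuronal enolase gene, had 5.09 at 3 h and 5.15 at 0 h, both below the floor. The main enolase gene of most tissues, Eno1, was not analysed here, so these values do not describe enolase as a whole.

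Pyruvate kinase and lactate dehydrogenase close the pathway. Pkm, the pyruvate kinase of most tissues, had 11.99 at 3 h and 12.04 at 0 h (-0.06), a difference that was 0 under quantile normalization. Pklr, the pyruvate kinase of liver and red cells, had 9.30 at 3 h and 9.74 at 0 h (-0.44). Ldha had 13.07 at 3 h and 13.37 at 0 h (-0.30), and Ldhb, the heart type, had 8.88 at 3 h and 9.22 at 0 h (-0.34). Both lactate dehydrogenase genes were lower by a like amount, while of the pyruvate kinase genes it was Pklr that differed more.

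**Figure D2:**
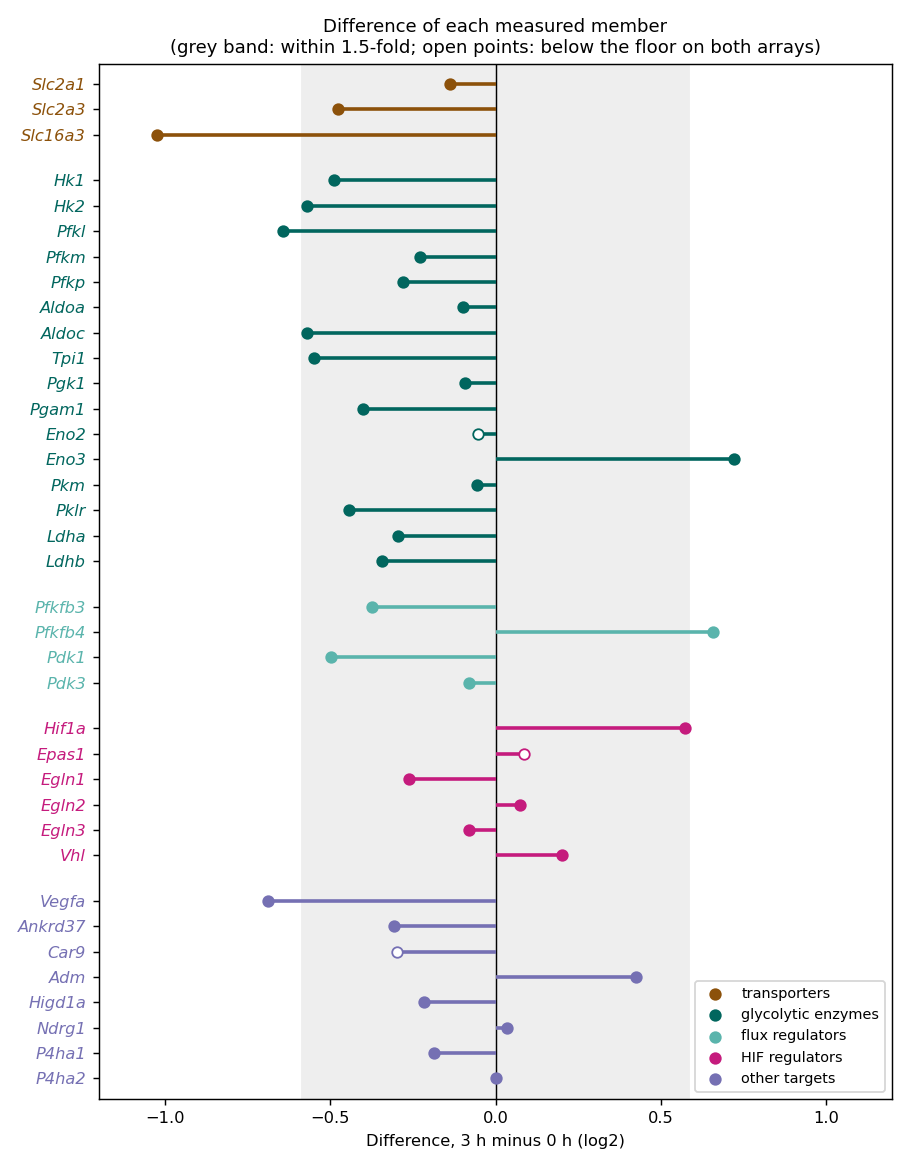
Difference between the arrays (3 h minus 0 h, log2) for each of the 37 measured members, coloured by role, with a grey band within 1.5-fold and open points for the 3 members below the floor on both arrays. Slc16a3 (-1.02), Vegfa (-0.69) and Pfkl (-0.64) lie left of the band, and Eno3 (0.72) and Pfkfb4 (0.66) lie right of it.

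The differences of the enzyme genes were also read against their level. The 6 enzyme genes with a mean of at least 11 (Aldoa, Tpi1, Pgk1, Pgam1, Pkm and Ldha) were all lower (5 after quantile normalization, where the difference of Pkm was 0), with differences between -0.55 and -0.06 and a median of -0.20. Of all 581 genes at that level, 60.8% were lower in the values as deposited, with a median of -0.04. The 9 dimmer enzyme genes had a median of -0.44, and 8 of them were lower. Of the 6354 genes whose mean lay in the range of the enzyme genes, 49.9% were lower and the median was 0.0007. Bright probe sets can saturate, which would make a difference look smaller, and this was not tested.

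**Figure D3:**
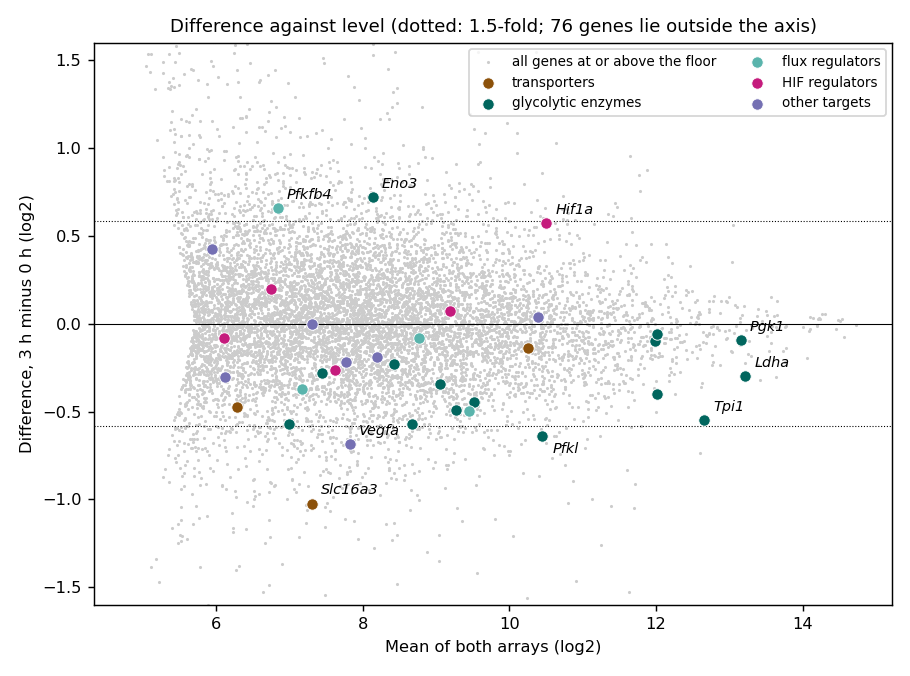
Difference (3 h minus 0 h, log2) against the mean of both arrays (log2) for all 9284 genes at or above the floor in grey, with 76 of them outside the axis, and for the 34 members in colour. The glycolytic enzymes lie below the zero line from a mean of 6.99 to one of 13.22, except for Eno3, and dotted lines mark 1.5-fold.

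Flux regulators went both ways. The PFKFB enzymes make and remove the signal that activates phosphofructokinase, and their 2 genes differed in opposite directions: Pfkfb3 had 6.99 at 3 h and 7.36 at 0 h (-0.37), whereas Pfkfb4 had 7.17 at 3 h and 6.52 at 0 h, 1.58-fold higher. PDK kinases switch off pyruvate dehydrogenase and so keep pyruvate out of the mitochondria. Pdk1, a HIF target, had 9.201 at 3 h and 9.698 at 0 h (-0.497). Pdk3 had 8.72 at 3 h and 8.80 at 0 h (-0.08). Pfkfb4 thus stood apart from the other 3, which were lower.

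The genes of the HIF system were not lower as a group. Hif1a, the oxygen-sensitive alpha subunit, had 10.79 at 3 h and 10.22 at 0 h, 1.49-fold higher. Epas1, which encodes the related HIF2A subunit, had 5.26 at 3 h and 5.18 at 0 h, below the floor on both arrays. Among the prolyl hydroxylase genes, Egln1, the main oxygen sensor and itself a HIF target, had 7.49 at 3 h and 7.75 at 0 h (-0.26). Egln2 had 9.22 at 3 h and 9.15 at 0 h (0.07), and Egln3, another HIF target, had 6.07 at 3 h and 6.15 at 0 h (-0.08). These sensors therefore differed little. Vhl, the ubiquitin ligase subunit that recognises hydroxylated HIF alpha, had 6.85 at 3 h and 6.65 at 0 h (0.20). The median of the 5 genes at or above the floor was 0.07, and it was -0.003 without the probe sets whose suffix marks possible matches to several transcripts or genes, which leaves out Hif1a.

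Other HIF targets lay on both sides, with 4 of 7 lower, against 48.5% of all genes at or above the floor, and a median of -0.19. Vegfa, the growth factor of blood vessels, had 7.49 at 3 h and 8.17 at 0 h, 1.61-fold lower. Adm, which encodes the vasodilator adrenomedullin, had 6.15 at 3 h and 5.73 at 0 h (0.43), and its 0 h value was close to the floor. These 2 secreted factors thus lay on opposite sides. Ankrd37, an ankyrin repeat gene strongly induced by hypoxia, had 5.97 at 3 h and 6.28 at 0 h (-0.31). Higd1a, a mitochondrial inner membrane gene, had 7.66 at 3 h and 7.87 at 0 h (-0.22). Ndrg1, a stress-induced gene, had 10.41 at 3 h and 10.37 at 0 h (0.04). These 3 differed by less than 1.3-fold. The collagen prolyl hydroxylase genes were P4ha1, with 8.10 at 3 h and 8.28 at 0 h (-0.19), and P4ha2, with 7.30 at both times. Car9, a carbonic anhydrase gene that is among the most HIF-dependent known, had 4.698 at 3 h and 4.997 at 0 h, below the floor on both arrays.

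Set side by side, the medians were -0.34 for the 15 glycolytic enzyme genes and 0.07 for the 5 HIF regulator genes, a gap of -0.42. The 7 other targets had a median of -0.19, a gap of -0.16 to the enzymes. Without suffixed probe sets, which left 6 of the 15 enzyme genes, the medians were -0.25 for the enzymes, -0.003 for the regulators and -0.25 for the other targets. The first gap thus shrank to -0.25 and the second to -0.007. HIF regulators and other targets taken as 1 group of 12 had a median of -0.04, with 6 lower and 6 higher, where 48.5% of all genes were lower. No test of these gaps is possible with 1 array for each time, and members of a pathway do not vary independently.

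**Figure D4:**
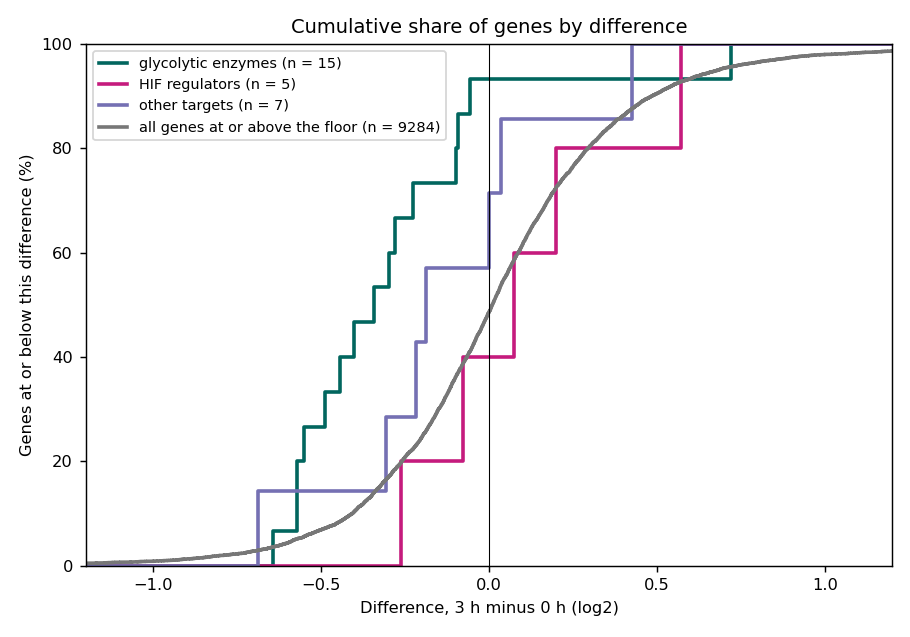
Cumulative share (%, vertical axis) of genes at or below each difference (3 h minus 0 h, log2, horizontal axis) for the 15 glycolytic enzymes, 5 HIF regulators and 7 other targets at or above the floor and, in grey, all 9284 such genes. The curve of the enzymes lies left of the grey one over most of its course, while the curve of the HIF regulators crosses it.

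Lists of neighbouring genes that are not members were read the same way. Among 19 further hypoxia targets at or above the floor, 11 were lower, against 48.5% of all genes, with a median of -0.16. Of these, Ak4, a mitochondrial adenylate kinase gene, had 8.27 at 3 h and 9.13 at 0 h, 1.80-fold lower, and Bnip3, a mitophagy gene, had 10.67 at 3 h and 11.38 at 0 h, 1.63-fold lower. Cited2, which encodes a competitor of HIF for its coactivators, was 1.52-fold higher (10.76 at 3 h and 10.16 at 0 h), and Mxi1, a MYC antagonist gene, differed by -0.58. The 12 genes of HIF partners and degradation had a median of 0.02, with Cited4 (0.61) and Pias4 (0.20) higher and Siah2 (-0.37) and Os9 (-0.26) lower. HIF-related genes outside the member list thus also lay on both sides.

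Among 15 further genes of glucose handling, 11 were lower, against 48.5% of all genes, with a median of -0.25. Slc16a7 and Pgam2, the latter named after its values were seen, reached the floor at 0 h alone, so they could only count as lower. Over all 19 measured, with no floor, the median was -0.17. Slc2a2, which encodes GLUT2, the glucose transporter of hepatocytes, had 8.37 at 3 h and 9.72 at 0 h, 2.55-fold lower. Slc16a7, the gene of the monocarboxylate transporter MCT2, had 4.81 at 3 h, below the floor, and 5.98 at 0 h. Pgm1, a phosphoglucomutase gene, differed by -0.55, and Hk3, the hexokinase of myeloid cells, by 0.54. Bpgm, named after its values were seen, encodes the red cell enzyme whose product lowers the oxygen affinity of haemoglobin, and it had 8.62 at 3 h and 8.10 at 0 h (0.52). Slc2a2 and Hk3 are known mainly from cells other than erythroid ones, and which cells gave their values was not tested.

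Downstream of pyruvate, Pdp1 of the pyruvate dehydrogenase list and 0 of the citrate cycle genes at or above the floor differed by at least 1.5-fold. All 14 citrate cycle genes that reached the floor were lower, with differences between -0.25 and -0.05 and a median of -0.12, against 48.5% lower and a median of 0.01 over all genes and 60.8% lower and a median of -0.04 over those with a mean of at least 11. Of the citrate cycle genes, Suclg2 (-0.25), Ogdh (-0.25), Idh2 (-0.24) and Suclg1 (-0.22) differed most. Ogdh had 5.49 at 3 h and 5.74 at 0 h, so it was counted through its 0 h value alone and could only be lower. Over all 17 citrate cycle genes measured, with no floor, the median was also -0.12. The 9 genes of pyruvate dehydrogenase and its regulators had a median of 0.17, with the phosphatase gene Pdp1 (0.60, 1.52-fold), the subunit gene Dlat (0.34) and the kinase gene Pdk4 (0.17) higher and Pdha1 (-0.20) lower. The citrate cycle genes thus shared the direction of the glycolytic enzyme genes, with a median closer to zero.

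**Figure D5:**
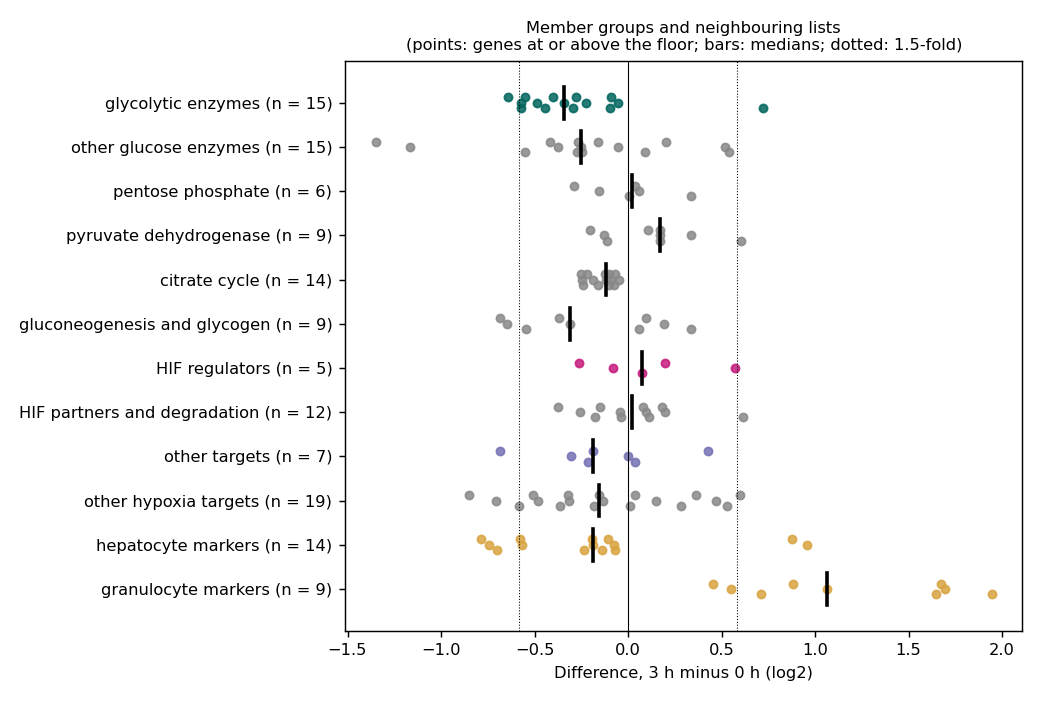
Difference (3 h minus 0 h, log2) of each gene at or above the floor, by list, with a black bar at the median and dotted lines at 1.5-fold. The medians of the lists other than markers run from -0.34 for the glycolytic enzymes to 0.17 for pyruvate dehydrogenase. Between them lie, among others, gluconeogenesis and glycogen (-0.31), other glucose enzymes (-0.25) and the citrate cycle (-0.12). Hepatocyte markers (-0.19) and granulocyte markers (1.06) are drawn at the bottom.

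Other cells were present in both samples, and fewer cells of a type cannot be told apart from less RNA in each cell. Hepatocytes also run much of this pathway and express Pklr and Slc2a2. All 14 measured hepatocyte markers were above the floor on both arrays, with a mean level of 11.51 at 3 h and 11.69 at 0 h, led by Afp (14.53 at 3 h and 14.60 at 0 h), Alb (13.96 and 14.15) and Apoa2 (13.70 and 13.84). Of these markers 12 were lower, with a median of -0.19, and differences ran in both directions past 1.5-fold: Apob (-0.79), Apoc1 (-0.75) and Hnf4a (-0.70) were lower, and Krt8 (0.95) and Krt18 (0.88) higher. These 5 and Gp1bb are named after their values were seen. Granulocyte markers had a mean level of 7.95 at 3 h and 7.02 at 0 h. At 3 h 9 of them reached the floor and at 0 h 6, so that Camp, Lcn2 and Ngp were counted through their 3 h value alone. All 9 were higher, among them S100a9 (1.94), Prtn3 (0.55) and Mpo (0.45), with a median of 1.06. Over all 12 measured, with no floor, the median was 0.82. Ltf (0.26), Fcnb (0.76) and Csf3r (-0.53) were below the floor on both arrays. Myeloid cells also use glycolysis heavily, and their part in the glycolytic values was not tested.

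Of 11 measured macrophage markers 4 reached the floor (mean of all 11, 5.72 at 3 h and 5.47 at 0 h). Lyz2 (1.83), Csf1r (0.997) and Fcgr3 (0.80, named after its values were seen) were higher and Vcam1 (-0.98) was lower. C1qa, C1qb, C1qc, Mrc1, Cd163, Cd68 and Adgre1 were below the floor. Megakaryocyte markers averaged 5.77 at 3 h and 5.26 at 0 h, and 4 reached the floor at 3 h but only 1 at 0 h. The 4 were Itga2b (-0.09), Gp9 (0.47), Pf4 (0.07) and Gp1bb, which had 6.68 at 3 h and 4.49 at 0 h (2.19). Lymphoid markers averaged 4.32 at 3 h and 4.24 at 0 h, and only Ighm (0.74) of 6 reached the floor, at 3 h alone. All 11 measured erythroid progenitor markers reached the floor on both arrays, led by Car2 (13.20 at 3 h and 13.24 at 0 h), Klf1 (12.31 and 12.03) and Hemgn (11.93 and 11.41), and 9 of them were higher, 4 by at least 1.5-fold, with a median of 0.28. Epor itself had 6.89 at 3 h and 7.08 at 0 h, which without a wild-type array checks nothing about the genotype. The part of these shifts in the lower glycolytic values was not tested.

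The cores shown above were searched in RefSeq windows running from 250 bases before each annotated start to 50 after it. Windows were found for 37 of the 40 members, not for Slc2a3, Epas1 and Ndrg1. ACGTG on either strand was present in at least 1 window of 24 of these 37 genes (64.9%), and in 30.4% of 7610 genes at or above the floor that have a window. By window the shares were 50.9% of 53 for members, 26.1% of 9798 for genes at or above the floor and 19.6% of all 32851. Many members were listed because HIF is known to induce them, and no test of this share was made. GCGTG, counted the same way, was in 64.9% of the member genes and 57.7% of the genes at or above the floor, and CACGTG, which contains ACGTG on both strands, in 13.5% and 12.1%.

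Members with and without the core both had negative medians. The 22 members at or above the floor with ACGTG in a window had a median difference of -0.22, and 86.4% of them were lower. The 10 without it had a median of -0.31, and 60.0% of them were lower. Over all genes at or above the floor with a window the medians were -0.003 for 2310 genes with ACGTG and 0.01 for 5300 without. Of these genes, 50.3% with ACGTG and 48.7% without were lower. A match is not a bound site, and distal elements, such as the one known for Vegfa, lie outside these windows.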

How the data were processed

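The authors deposited log2 expression values of 20666 probe sets on 2 arrays, made with the affy package and RMA, which corrects background, equalises the distributions of arrays and summarises probes, per the submitters' processing notes. The sources used here give no version, no genome build and no word on which arrays were normalized together. Equal distributions mean that a shift common to all transcripts would not be seen, and differences of dim probe sets are shrunk. The lowest and highest values were 1.93 and 14.73 at 3 h, against 2.02 and 14.73 at 0 h. An array has no read depth, and 1 array for each time limits the precision.

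Probe sets with 1 gene in the platform annotation (17918, with 79 naming several genes and 2669 none) were averaged by symbol, as for 43 of 17874 genes but no member. Groups follow the time in the sample titles. A gene was counted if its higher value reached 5.70, the median of all gene values, which left 9284. Differences are 3 h minus 0 h, and 1.5-fold was the threshold. No test was possible. Members, lists and the rule for named genes (all members, and up to 4 genes of each other list with the largest difference, or the 3 brightest markers) were chosen with earlier results of these data known. Older symbols of 3 listed genes were updated through RefSeq synonyms. A planned comparison of protein sequences was not made here. The steps were tested on simulated data. Python 3.11.15, numpy 2.4.6, pandas 2.3.3, statsmodels 0.14.6 and matplotlib 3.10.9 were used.

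Alternatives were quantile normalization of both columns, removal of an intensity trend (loess, span 0.3), the brightest probe set of a gene, probe sets without the suffixes that mark matches to several transcripts or genes, no floor, a floor 1 log2 unit higher, means for medians, and thresholds of 1.3-fold and 2-fold.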

Additional observations from a re-analysis of the deposited data

How the results depend on the processing

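The medians moved by less than 0.1 under all 7 alternatives: from -0.35 to -0.25 for glycolytic enzymes, from -0.003 to 0.14 for HIF regulators and from -0.25 to -0.13 for other targets. For HIF regulators the value of -0.003 came from probe sets without suffix, where Hif1a drops out. The enzyme value of -0.25 came from the same setting, where only 6 of the 15 enzyme genes remain. Without suffixed probe sets 15 of 20 members were lower, beside 48.3% of all genes in that setting. With all probe sets 26 of 34 members were lower, beside 48.5% of all genes. The count of members fell since fewer remain. A threshold of 1.3-fold gave 11 members lower and 4 higher, beside 11.7% and 14.6% of all genes. One of 2-fold gave 1 lower and 0 higher, beside 0.872% and 2.00% of all genes. The other 6 alternatives kept both 1.5-fold counts within 1.5 times. Of the 37 members, quantile normalization put Pkm at 0, both it and trend removal turned the sign of P4ha2, and the largest move of a member was 0.07. The brightest probe set changed nothing, because each member has 1. No paired analysis was possible because each time has 1 array. Suffixes marked 15 of 37 members, and 5 of these (Aldoa, Pgk1, Adm, Ndrg1 and Higd1a) carried the _s or _x suffix of possible matches to several genes. Tpi1, Pgk1, Pgam1 and Ldha have processed pseudogenes, which may share signal.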

Other observations

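Genes that store glucose or make it anew, and those of the pentose phosphate branch, were also read. Of 9 genes of gluconeogenesis and glycogen at or above the floor, 5 were lower and 4 higher, with a median of -0.31 (0.01 over all 14 with no floor). The lowest were Gys2, the liver glycogen synthase gene, with 7.43 at 3 h and 8.12 at 0 h, 1.61-fold lower, and Pygl, the liver glycogen phosphorylase gene, with 8.75 at 3 h and 9.40 at 0 h, 1.57-fold lower. Gys1, the glycogen synthase gene of other tissues, differed by -0.54, and Pcx, the pyruvate carboxylase gene, by -0.37. Pck1, G6pc and Fbp1, which encode enzymes of glucose production in liver, were below the floor on both arrays and are named after their values were seen.

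The 6 measured genes of the pentose phosphate pathway, which supplies NADPH against oxidants in red cells, had a median of 0.02. Pgd, an NADPH-forming dehydrogenase gene, had 11.82 at 3 h and 11.48 at 0 h (0.33), Taldo1 differed by 0.06, Pgls by -0.16 and Rpia by -0.29. The first enzyme gene of this branch, G6pdx, was not analysed here.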
